A study of Homo sapiens with 6 samples.

Results

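The syndecans and glypicans, the cell surface carriers of heparan sulfate, were examined in the RNA-Seq data of OVCAR8 cells, a cell line from high grade serous ovarian cancer. The family was chosen by the values of SDC1, which were lower with both treatments, so the changes of SDC1 against control are given below as a description and carry no test. Its 8 listed genes (SDC1, SDC2, SDC3, SDC4, GPC1, GPC3, GPC4 and GPC6) were all found among the 14930 genes of the matrix. The 4 syndecans, GPC1 and GPC3 were tested, while GPC4 and GPC6 were below the limit for testing, which asked for 2 or more samples with a value of 10 or above.

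Bulk RNA was collected after 72 h from 3 groups of 2 samples. The first group, Ctrl, was given DMSO. The second, DZNep, received 3-deazaneplanocin A, an inhibitor of S-adenosylhomocysteine hydrolase that is used to deplete the histone methyltransferase EZH2. The third, shEZH2, was treated with doxycycline to induce a hairpin against EZH2. The study's methods give 5 μM DZNep and 1 μg/mL doxycycline, whereas the labels give the same digits in mM and mg/mL. It is not stated whether the Ctrl cells carried the uninduced hairpin, whether the hairpin line is a clone, or whether the duplicates came from separate cultures. P-values therefore measure only the spread between these samples, which may be technical. No sample with doxycycline and a control hairpin was analysed here, so doxycycline and the silencing of EZH2 cannot be told apart.

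Syndecans are transmembrane proteins with a short cytoplasmic tail that binds PDZ proteins, and glypicans are held in the outer leaflet of the membrane by a glycosylphosphatidylinositol (GPI) anchor. Both carry heparan sulfate chains, through which they bind growth factors, Wnt and Hedgehog ligands and matrix proteins. The chains are built in the Golgi apparatus on a short linker, polymerised by the exostosins and then sulfated, and the core proteins can be shed from the cell by metalloproteases. SDC1 is the main syndecan of epithelia, SDC2 is prominent in mesenchymal cells, SDC3 in the nervous system, and SDC4 is widely expressed and found in focal adhesions.

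The promoter sequences of SDC1, GPC1 and SDC4 are shown because these genes differed in their response: the first 2 were lower with both treatments and SDC4 was not. Each is the 250 bases before the RefSeq start on GRCh38.p14, written 5′ to 3′ on the strand of the gene. SDC1 had 2 RefSeq entries, and the start farthest upstream was used. Capitals mark the GC box, GGGCGG or CCGCCC, the binding motif of Sp1. SDC1 lies at chr2:20225476-20225725 on the minus strand, GPC1 at chr2:240435413-240435662 on the plus strand and SDC4 at chr20:45348425-45348674 on the minus strand. None of the 3 windows overlaps an exon of the GENCODE annotation.
SDC1: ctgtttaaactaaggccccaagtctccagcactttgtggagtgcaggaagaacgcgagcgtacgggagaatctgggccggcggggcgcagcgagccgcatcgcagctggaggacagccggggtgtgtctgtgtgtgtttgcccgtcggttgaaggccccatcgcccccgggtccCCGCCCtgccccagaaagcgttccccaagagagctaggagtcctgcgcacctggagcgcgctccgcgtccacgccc
GPC1: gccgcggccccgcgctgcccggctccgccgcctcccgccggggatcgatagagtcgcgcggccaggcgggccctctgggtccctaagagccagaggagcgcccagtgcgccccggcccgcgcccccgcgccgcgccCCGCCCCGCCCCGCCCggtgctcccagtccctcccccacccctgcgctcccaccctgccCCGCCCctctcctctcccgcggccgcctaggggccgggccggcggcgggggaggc
SDC4: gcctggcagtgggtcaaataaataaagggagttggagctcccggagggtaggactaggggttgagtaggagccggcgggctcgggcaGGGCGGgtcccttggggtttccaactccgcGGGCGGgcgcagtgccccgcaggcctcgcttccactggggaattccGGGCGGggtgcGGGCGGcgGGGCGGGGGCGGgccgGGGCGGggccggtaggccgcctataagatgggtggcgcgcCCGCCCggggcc
The SDC1 window has 1 GC box, 23 CpG dinucleotides and a GC content of 66.4%. The GPC1 window is richer in GC (84%), with 4 GC boxes and 36 CpG, and the SDC4 window has 8 GC boxes, 26 CpG and 73.6% GC. Over all 35116 RefSeq promoters of this length, 42.6% hold a GC box, the median CpG count is 11 and the median GC content is 58%. A TATA box (TATAAA) is found in 10.7% of promoters and an AP-1 motif (TGANTCA) in 6.57%, both searched on either strand, and neither occurs in the 3 windows. Windows of SDC3, GPC4 and GPC6 were also found, which makes 6 of the 8 genes, and SDC2 and GPC3 had no entry. The GPC6 window differs from the others, with 37.6% GC, 6 CpG, no GC box and 1 TATA box. A match of letters is a description and not a measured binding site.

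The values below are whole numbers that the authors had scaled to a common total in each sample (999956 to 1000068). The number of reads behind them is unknown, and no interval for counting error can be given. Fold changes are log2 differences of (value + 1) after TMM scaling, with their standard error (SE), and adjusted p-values come from limma over 9671 tested genes. EZH2 itself had values of 36 and 42 in Ctrl, 26 and 26 with DZNep and 18 and 18 with shEZH2, and it was lower with both (log2 -0.63, adjusted p = 0.0255, and -1.12, adjusted p = 0.0160). The shEZH2 samples were closer to each other than the samples of the other groups: the SD of the log2 difference between duplicates over genes was 0.14, against 0.43 for Ctrl and 0.45 for DZNep. Results of shEZH2 for members and pathway genes that are lost when these samples are averaged and counted as 1 are named below. The call of EZH2 itself was not examined in this way. Of the epithelial markers, KRT8 and KRT18 were high in all samples (816 to 4398), while EPCAM (5 to 12) and CDH1 (0 to 8) were low, and the sum of the 5 measured markers was 2407 to 3018 in Ctrl, 7357 to 8535 with DZNep and 3439 to 3445 with shEZH2. KRT8 and KRT18 carried this sum, whereas KRT7 was 597 and 499 in Ctrl, 585 and 503 with DZNep and 355 and 350 with shEZH2. The 3 measured Müllerian markers summed to 170 to 195, 51 to 57 and 108 to 119, mostly MSLN, with PAX8 at 10 to 19 and WT1 at 1 to 2. The 3 fibroblast markers measured summed to 25 to 28, 53 to 69 and 46 to 53, with PDGFRB at 11 to 12 in Ctrl and 34 to 56 in the treated samples and COL1A1 at 9 to 16 throughout. The 1 leukocyte marker measured was at 1 to 2, and the 2 endothelial markers summed to 2 to 4. The part of these differences in the results below was not tested, and in bulk RNA fewer cells of a type and less RNA per cell cannot be told apart.

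SDC1 (chr2:20200797-20225433, minus strand) had deposited values of 229 and 196 in Ctrl, 70 and 60 with DZNep and 112 and 107 with shEZH2. The groups formed 3 separate levels, highest in Ctrl, intermediate with shEZH2 and lowest with DZNep. The means were 212.5 ± 23.3, 65 ± 7.07 and 109.5 ± 3.54 (SD, n = 2 each). The log2 fold change was -1.76 (SE 0.21) with DZNep and -0.99 (SE 0.21) with shEZH2, that is 3.40-fold and 1.99-fold lower. Ranked from the lowest of the 9671 log2 fold changes, SDC1 stood at place 332 with DZNep and 301 with shEZH2. These contrasts selected the family and are not tested. The direct comparison of the treatments did not make the choice, but it uses the same treated samples and is not independent of it. SDC1 was 0.77 higher on the log2 scale with shEZH2 than with DZNep (SE 0.21, 95% CI 0.28 to 1.26). That difference did not pass the threshold (adjusted p = 0.0597). This call changed with the processing: it passed with the values as deposited (0.0313), with only the groups compared (0.0310), without Ctrl replicate 1 (0.0323), without Ctrl replicate 2 (0.0295) and without DZNep replicate 1 (0.0388). It also passed with the replicate block, at the lowest adjusted p (0.000665). That block takes a single shift for all groups, which shEZH2 did not share. With the shEZH2 samples averaged it did not pass, and over the alternatives the log2 difference was 0.55 to 1.00.

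**Figure D1:**
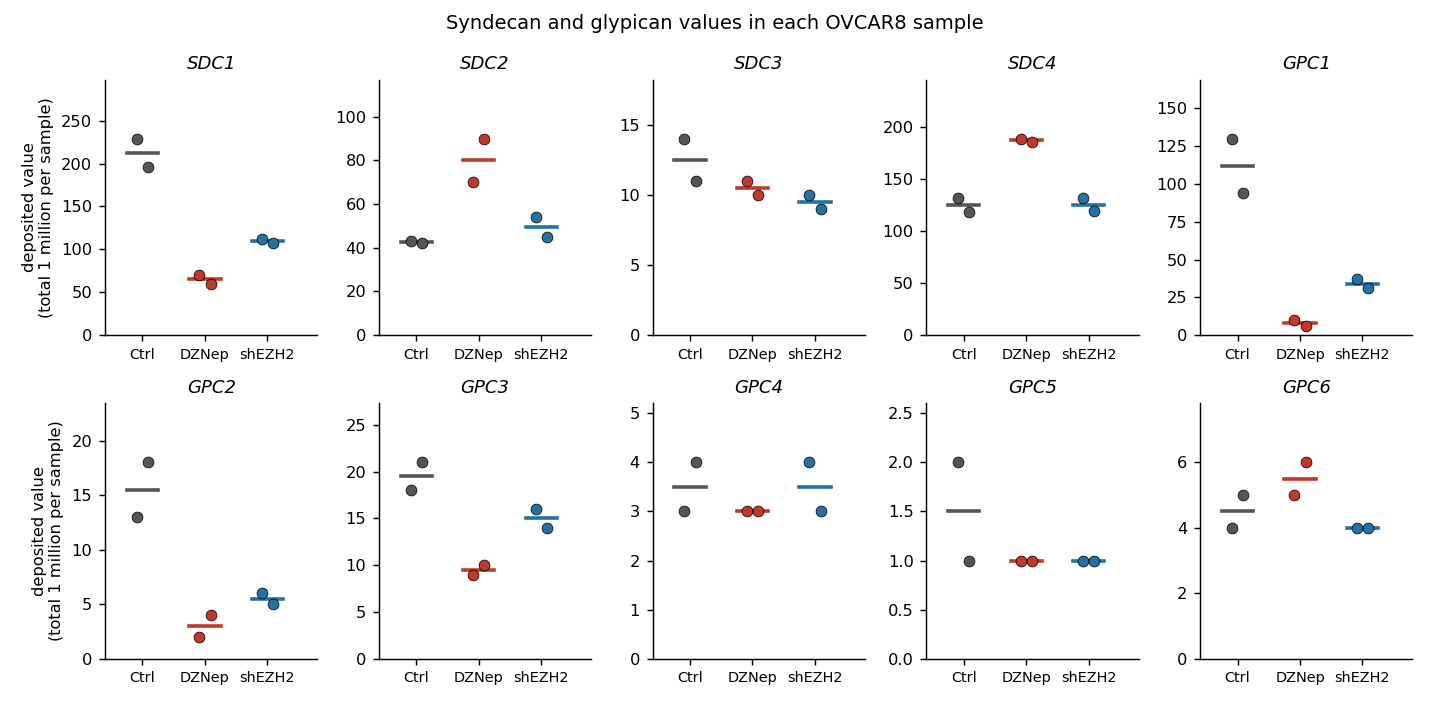
Deposited value (scaled by the authors to a common total per sample, linear axes from 0 that differ between genes) of the 8 members, GPC2 and GPC5, 1 panel a gene. Points are single samples of Ctrl, DZNep and shEZH2, and short lines are the group means. SDC1 and GPC1 were lower in all 4 treated samples than in both Ctrl samples, SDC2 and SDC4 were higher with DZNep, and GPC4 and GPC6 stayed between 3 and 6.

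GPC1, a glypican that binds fibroblast growth factors and is often raised in carcinomas, showed the greatest difference among the tested members. GPC1 (chr2:240435663-240468076, plus strand) had deposited values of 130 and 94 in Ctrl, 10 and 6 with DZNep and 37 and 31 with shEZH2. The 3 groups did not overlap and lay in the same order as those of SDC1. The means were 112 ± 25.5, 8 ± 2.83 and 34 ± 4.24 (SD, n = 2 each). With DZNep GPC1 fell by 3.73 on the log2 scale (SE 0.32, 95% CI -4.47 to -2.99, adjusted p = 0.000178), or 13.3-fold, at place 19 from the lowest of all tested genes. The size at such low values depends on rounding: without the pseudocount, the log2 ratio of the group means lies between -3.95 and -3.77 over the values that round to those deposited. With shEZH2 GPC1 fell by 1.73 (SE 0.32, 95% CI -2.47 to -0.99, adjusted p = 0.0214), or 3.31-fold, at place 45. The fall with shEZH2 did not pass when the shEZH2 samples were averaged, or without shEZH2 replicate 1 or replicate 2. Over the alternatives the log2 fold change was between -2.04 and -1.42. The lowest adjusted p (limma, 2.25e-09) came with the replicate block, which takes a single shift for all groups although shEZH2 did not share it. GPC1 was also the only tested member that passed in the direct comparison, 2.01 higher with shEZH2 than with DZNep (SE 0.32, 95% CI 1.27 to 2.75, adjusted p = 0.0125).

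GPC3, an inhibitor of Hedgehog signalling known as a marker of hepatocellular carcinoma, was also lower with DZNep. GPC3 (chrX:133535745-133987100, minus strand) had values of 18 and 21 in Ctrl, 9 and 10 with DZNep and 16 and 14 with shEZH2. The DZNep samples were the lowest, and the shEZH2 samples lay between the other groups. GPC3 fell by 1.03 on the log2 scale with DZNep (SE 0.19, adjusted p = 0.0036), or 2.04-fold. The difference with shEZH2 was -0.40 (SE 0.19, 95% CI -0.83 to 0.02) and did not pass (adjusted p = 0.199). The difference between the treatments, 0.63 higher with shEZH2 (SE 0.19), did not pass either (adjusted p = 0.0712).

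GPC4 and GPC6, which take part in Wnt and BMP signalling, were near the lower end of the scale. GPC4, a neighbour of GPC3 at chrX:133300103-133415489, had values of 3 and 4 in Ctrl, 3 and 3 with DZNep and 4 and 3 with shEZH2. GPC6 (chr13:93226807-94408020, plus strand) had values of 4 and 5 in Ctrl, 5 and 6 with DZNep and 4 and 4 with shEZH2. At these values a step of 1 is the rounding unit, and both treated groups overlapped with or touched Ctrl in both genes. The DZNep samples of GPC6 lay above the shEZH2 samples, and the log2 ratio of means, shEZH2 against DZNep, was between -0.75 and -0.12 within rounding. For DZNep against Ctrl, rounding alone leaves the log2 ratio of the means anywhere from -0.74 to 0.17 for GPC4 and from -0.07 to 0.52 for GPC6.

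The 2 remaining glypicans were not in the list. GPC2, a glypican of the developing nervous system, had values of 13 and 18 in Ctrl, 2 and 4 with DZNep and 6 and 5 with shEZH2. It passed the filter on low values only through the Ctrl samples, so a difference was built into its entry, and its log2 fold changes of -2.14 with DZNep and -1.38 with shEZH2 (SE 0.25 each) are given as a description, with no test. GPC5 was at 1 or 2 in all 6 samples and was not tested.

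None of the other syndecans was called lower with either treatment. SDC2 (chr8:96493813-96611790, plus strand) had values of 43 and 42 in Ctrl, 70 and 90 with DZNep and 54 and 45 with shEZH2. Both DZNep samples were above all others. SDC2 rose by 0.82 with DZNep (SE 0.17, adjusted p = 0.00752), or 1.76-fold. With shEZH2 the difference was 0.16 (SE 0.17, 95% CI -0.24 to 0.56, adjusted p = 0.578). The direct difference, shEZH2 against DZNep, was -0.65 (SE 0.17, adjusted p = 0.0548), which did not pass. That difference passed with only the groups compared (0.0387), without Ctrl replicate 1 and without Ctrl replicate 2. Its lowest adjusted p, 0.00573, came with the replicate block, whose single shift shEZH2 did not share. With the shEZH2 samples averaged it did not pass, and over the alternatives the log2 difference was -0.76 to -0.55.

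SDC4 (chr20:45325288-45348424, minus strand) had values of 132 and 118 in Ctrl, 189 and 186 with DZNep and 132 and 119 with shEZH2. The shEZH2 samples were nearly equal to the Ctrl samples, and both DZNep samples were above the other 4. With DZNep the log2 fold change was 0.51 (SE 0.18, 95% CI 0.09 to 0.93) and just missed the threshold (adjusted p = 0.0535). It passed with the values as deposited (0.0132), without Ctrl replicate 1 and without DZNep replicate 2. Its lowest adjusted p, 0.00934, came with the replicate block. Over the alternatives the log2 fold change was 0.35 to 0.67. With shEZH2 it was -0.04 (SE 0.18, 95% CI -0.46 to 0.38, adjusted p = 0.898), and its sign turned with the values as deposited (0.00604). The direct difference was -0.55 (SE 0.18, adjusted p = 0.0951) and passed with the values as deposited (0.0394) and with the replicate block (0.0119). It was -0.68 to -0.42 over the alternatives.

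SDC3 (chr1:30869466-30908758, minus strand) had values of 14 and 11 in Ctrl, 11 and 10 with DZNep and 10 and 9 with shEZH2. These values lay within a narrow range near the filter limit. Its log2 fold change was -0.29 with DZNep (SE 0.24, 95% CI -0.84 to 0.26) and -0.40 with shEZH2 (SE 0.24, 95% CI -0.95 to 0.14), and neither passed (adjusted p = 0.352 and 0.304).

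**Figure D2:**
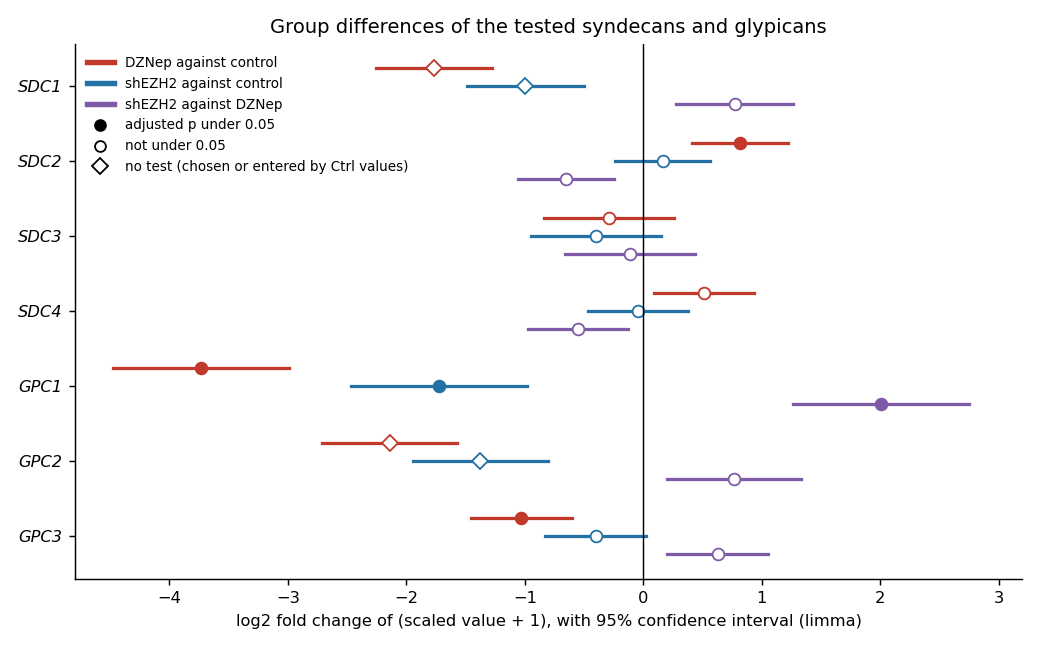
Log2 fold change of (value + 1) for the tested members and GPC2 in the 3 contrasts (colours), with points for the estimates, lines for the 95% CI, filled points for an adjusted p under 0.05, open circles for those above it, and open diamonds for SDC1 and GPC2 against Ctrl, which carry no test. The lines of SDC1 and GPC2 against Ctrl describe spread only and are not to be read as a test of 0. GPC1 lies farthest from 0 with DZNep (-3.73) and SDC2 on the other side (0.82), while SDC4 with shEZH2 lies at -0.04.

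Of the 5 tested members other than SDC1, 2 fell with DZNep (GPC1 and GPC3), where 20.4% of all tested genes fell, and 1 rose (SDC2), where 22.4% rose. With shEZH2, 1 of the 5 fell (GPC1), where 4.53% of all tested genes fell, and none rose by limma at the adjusted threshold (0 also at an unadjusted p under 0.05), where 3.9% rose. In the direct comparison, 1 of 6 tested members (SDC1 included) was higher with shEZH2, GPC1, where 4.88% of all genes were higher. None was lower, where 4.42% were lower. At an unadjusted p under 0.05 by limma, GPC1 and GPC3 were higher and SDC2 and SDC4 were lower. The share of all genes at that limit was not worked out. SDC1 was also higher at that limit, which is a description only, since its treated values are not independent of the choice of the family. Both treatments were compared with the same Ctrl samples. With 2 samples a group, non-overlap is common: both DZNep values were below both Ctrl values in 30.8% of tested genes and above them in 34.8%. With shEZH2 the shares were 31.6% and 33.5%, and for shEZH2 against DZNep 31.3% and 29.5%.

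Ratios of deposited values within a sample do not depend on the scaling of that sample, and are given as a description since SDC1 chose the family. SDC4 over SDC1 was 0.576 and 0.602 in Ctrl, 2.7 and 3.1 with DZNep and 1.18 and 1.11 with shEZH2. GPC1 over SDC1 was 0.568 and 0.480, then 0.143 and 0.1, then 0.330 and 0.290. So GPC1 was lowered more than SDC1 in all 4 treated samples. SDC4 over GPC1 was 1.02 and 1.26 in Ctrl, 18.9 and 31 with DZNep and 3.57 and 3.84 with shEZH2. These ratios show how the values changed relative to each other and not which gene had more transcripts.

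The genes whose pattern was most like that of SDC1 were sought among the 3332 tested genes that averaged 50 or more, by the root mean square difference of log2 values, each gene centred on its mean over the 6 samples. The closest were PINK1, a kinase of mitochondrial quality control (0.0618), RABL6, a GTPase-like protein (0.0663), TIMELESS, a replication fork protein (0.0665), MAN2B1, the lysosomal alpha-mannosidase (0.0670) and RPS29, a ribosomal protein (0.0741). PINK1 had values of 212 and 192 in Ctrl, 65 and 61 with DZNep and 106 and 95 with shEZH2, close to those of SDC1 in every group. GPC1 stood at place 1890 on this measure (0.825), since its changes were of another size.

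The wider heparan sulfate pathway was described with a list of 100 genes in 10 roles, of which 86 were measured and 71 tested. With DZNep 16 rose (22.5%) and 12 fell (16.9%), with a median log2 fold change of -0.11 against 0.02 over all tested genes. With shEZH2 4 rose (5.63%) and 3 fell (4.23%), with a median of -0.06 against -0.01. These shares lie near those of all tested genes. In the direct comparison, 5 were higher with shEZH2 (7.04%) and 3 were lower (4.23%). Of the genes called higher, some were below 10 in both Ctrl samples and so passed the filter only through treated samples. These were 4 of the 16 with DZNep (FURIN, NDST2, RHOG and SDCBP2) and 2 of the 4 with shEZH2 (FURIN and SDCBP2). MMP15, called higher with both treatments, reached 10 in only 1 Ctrl sample and also needed treated samples to pass. Of the 12 lower with DZNep, 1, PCSK6, passed the filter only through Ctrl. Single samples moved these counts: 9 rose with DZNep without Ctrl replicate 2 and 7 without DZNep replicate 1, and with shEZH2 7 rose without Ctrl replicate 1, 6 without DZNep replicate 1 and 1 without Ctrl replicate 2. All calls of shEZH2 in this list, against Ctrl and against DZNep, were lost when its samples were averaged and counted as 1, and when either was left out.

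Chain synthesis was mixed. EXT1, a subunit of the heparan sulfate polymerase, had values of 183 and 181 in Ctrl, 424 and 426 with DZNep and 206 and 185 with shEZH2. EXT1 rose with DZNep (log2 1.15, SE 0.17, adjusted p = 0.00136) and was lower with shEZH2 than with DZNep (log2 -1.10, adjusted p = 0.0106). Its partner EXT2 had values of 123 and 108, then 106 and 115, then 92 and 91, and passed in neither contrast against Ctrl (adjusted p = 0.573 and 0.204). EXTL3, which starts the chain, was also not called (37 to 51 in all samples, adjusted p = 0.824 and 0.942). EXTL2, a related transferase, fell with DZNep (log2 -1.07, adjusted p = 0.00996). Among the linker enzymes, the galactosyltransferase B3GALT6 rose with DZNep from 33 and 30 to 88 and 79 (log2 1.31, SE 0.21, adjusted p = 0.00203), and the xylosyltransferase XYLT2 fell from 56 and 59 to 36 and 31 (log2 -0.84, adjusted p = 0.0125).

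Of the 8 tested genes for sulfation and epimerisation, 3 were called higher with DZNep and none lower, where 22.4% and 20.4% of all tested genes were, and none passed with shEZH2 (3.9% and 4.53%). NDST1, which replaces N-acetyl by N-sulfate groups, had values of 41 and 37 in Ctrl, 107 and 85 with DZNep and 50 and 50 with shEZH2. NDST1 rose with DZNep by 1.20 (SE 0.23, adjusted p = 0.00451) and was lower with shEZH2 than with DZNep (log2 -0.90, adjusted p = 0.0482). HS6ST1, a 6-O-sulfotransferase, rose from 34 and 33 to 66 and 52 (adjusted p = 0.0339), and NDST2 (6 and 5 in Ctrl, 13 and 10 with DZNep, 12 and 10 with shEZH2) was the remaining gene counted, which passed the filter only through treated samples. HS2ST1, the 2-O-sulfotransferase, had values of 32 and 60, then 29 and 50, then 39 and 37, with a wide spread between duplicates, and was not called (adjusted p = 0.466 and 0.590). The enzymes that edit the chains outside the cell were too low to test: the sulfatase SULF1 was at 0 to 3 and the heparanase HPSE at 8 to 10 in the 6 samples, and SULF2 was not analysed here.

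In precursor supply and the competing chondroitin sulfate pathway, calls were few. Of the 10 tested precursor genes, 1 rose and 1 fell with DZNep, and 1 fell and none rose with shEZH2. Of the 12 tested chondroitin genes, 2 rose with DZNep and 1 with shEZH2, and none fell. Among all tested genes 22.4% rose and 20.4% fell with DZNep, and 3.9% and 4.53% with shEZH2. As in the whole list, the calls with shEZH2 were lost when its samples were averaged. UGDH, which makes UDP-glucuronic acid, had values of 25 and 31 in Ctrl, 10 and 17 with DZNep and 11 and 13 with shEZH2, and fell with both (log2 -1.11, adjusted p = 0.0065, and -1.20, adjusted p = 0.0228). PAPSS2, a synthase of the sulfate donor, rose with DZNep (log2 0.84, adjusted p = 0.00554), was not called with shEZH2 (log2 0.10, adjusted p = 0.725), and was lower with shEZH2 than with DZNep in the direct test (log2 -0.74, adjusted p = 0.0352). CHST3, a chondroitin 6-O-sulfotransferase, had values of 30 and 24, then 90 and 92, then 53 and 53, and rose with both (log2 1.65, adjusted p = 0.00075, and 0.91, adjusted p = 0.0369). Of the GPI transamidase, which attaches the anchor of glypicans, PIGS rose (log2 0.83, adjusted p = 0.0437) and GPAA1 fell (log2 -0.74, adjusted p = 0.0477) with DZNep, and the other 3 of its 5 subunits did not pass, where 22.4% of all tested genes rose and 20.4% fell.

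Among the proteases that release the core proteins, MMP14, a membrane metalloprotease that cleaves syndecan 1, had values of 189 and 163 in Ctrl, 44 and 40 with DZNep and 97 and 87 with shEZH2. MMP14 fell with both treatments (log2 -2.11, SE 0.20, adjusted p = 0.000276, and -0.98, adjusted p = 0.0290) and was 1.13 higher with shEZH2 than with DZNep (adjusted p = 0.0180). MMP15, of the same membrane type, had values of 10 and 6, then 18 and 19, then 20 and 17. Only 1 Ctrl sample reached the filter limit of 10, so MMP15 needed treated samples to pass the filter. Its differences (log2 1.08 and 1.10, both higher) are given as a description. The convertase FURIN, at 5 to 12, passed the filter through treated samples alone, so a difference was built into its entry (log2 0.74 and 0.88). The sheddases ADAM10 and ADAM17 did not pass with either treatment (adjusted p = 0.0845 and 0.405 for ADAM10, 0.205 and 0.867 for ADAM17).

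Of the 14 proteins that bind or traffic syndecans, 5 were called higher and 2 lower with DZNep, where 22.4% and 20.4% of all tested genes were. Of the 5, SDCBP2 and RHOG (8 and 6 in Ctrl, 16 and 16 with DZNep) passed the filter only through treated samples. SDCBP (syntenin), which binds the syndecan tail, was between 40 and 56 in all samples and was not called (adjusted p = 0.776 and 0.788). Its relative SDCBP2 had values of 2 and 2 in Ctrl, 12 and 11 with DZNep and 7 and 7 with shEZH2, and entered the test only through the DZNep samples. The folds of (value + 1), 4.01 and 2.60 higher, are lowered by the added 1 at such small values. PDCD6IP (ALIX), which acts with syntenin in exosome formation, fell with DZNep (61 and 102 to 36 and 31, log2 -1.29, adjusted p = 0.0044). ARF6, a GTPase of syndecan recycling, rose (105 and 114 to 177 and 237, log2 0.83, adjusted p = 0.00415).

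Of the 6 other heparan sulfate proteoglycans tested, 4 fell with DZNep (20.4% of all tested genes fell) and none rose (22.4%), with a median log2 fold change of -1.09. COL18A1, the collagen of basement membranes that gives endostatin, had values of 65 and 65 in Ctrl, 19 and 16 with DZNep and 35 and 29 with shEZH2, and fell with both treatments (log2 -1.91, adjusted p = 0.000498, and -1.05, adjusted p = 0.0280). AGRN (agrin) had values of 191 and 187, then 62 and 53, then 153 and 113. It fell with DZNep (log2 -1.77, adjusted p = 0.000719) and was higher with shEZH2 than with DZNep (log2 1.21, adjusted p = 0.0184). HSPG2 (perlecan) fell with DZNep by 0.92 on the log2 scale (adjusted p = 0.0188), and TGFBR3 (betaglycan), a coreceptor of TGF-β, fell as well (log2 -1.25, adjusted p = 0.00404). CD44, of which some isoforms carry heparan sulfate, was at 102 to 144 in all samples and was not called.

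**Figure D3:**
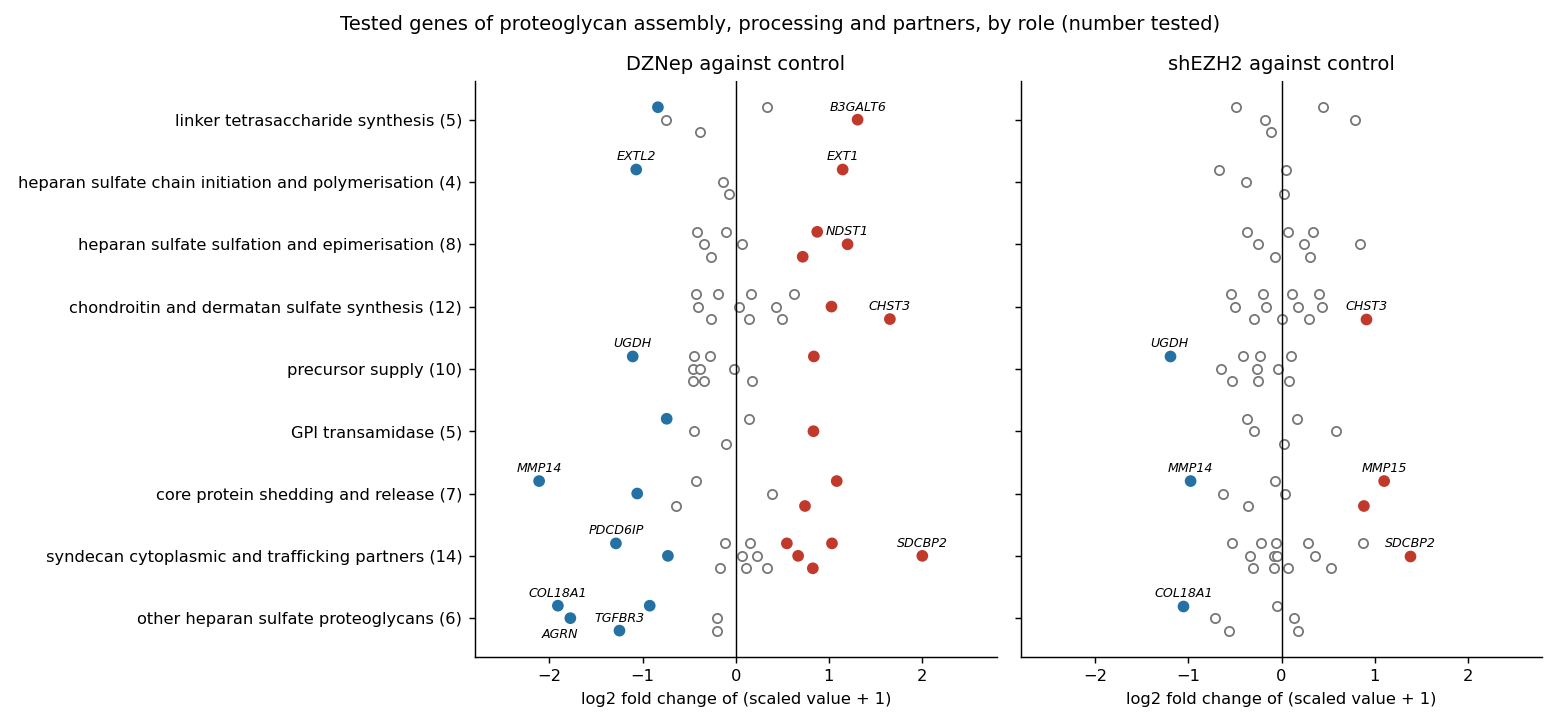
Log2 fold change of (value + 1) of the 71 tested heparan sulfate pathway genes by role (number tested in brackets), with DZNep and shEZH2 against Ctrl in separate panels. Filled points are genes with an adjusted p under 0.05 (red higher, blue lower) and open points the others. With DZNep the 6 tested other proteoglycans had a median of -1.09. The 8 tested genes for sulfation and epimerisation had a median of -0.02, with the 3 that passed above 0 and others below it.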

How the data were processed

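RNA of OVCAR8 cells was measured in 6 samples. Per the methods, the authors depleted ribosomal RNA and made stranded libraries. Their reads passed through fastp (trimming), STAR (alignment, GRCh38) and RSEM (quantification), and the versions of the last 2 tools are not given in the sources used here. The deposited values are a score: the authors scaled each sample to a common total and rounded to whole numbers, so these are not counts although the deposit names them so, and depth is unknown. The authors tested with edgeR. Here limma 3.58.1 in R 4.3.3 (lmFit, eBayes with trend, two-sided, Benjamini-Hochberg) was used on log2(value + 1) after unweighted TMM scaling (30% and 5% trimming, factors 0.920 to 1.12), in 1 fit of 3 group means, for genes that reached 10 in 2 or more samples. The fit was tried on simulated data with independent noise of equal size in all groups. That noise lacked the shared deviations of Ctrl and DZNep and the closer shEZH2 duplicates, so the p-values were not checked for these.

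The members and gene lists were chosen with earlier results of these data known. Named were all members, GPC2, GPC5, EZH2, 12 pathway genes, the gene with the greatest change per role among those past the threshold with a mean of at least 20, and the 5 genes most like SDC1. The other pathway genes (EXTL2, XYLT2, HS6ST1, NDST2, UGDH, GPAA1, MMP15, FURIN, PCSK6, SDCBP2, RHOG, ARF6, AGRN, HSPG2, TGFBR3 and CD44) were chosen after their values were seen. The 17 alternatives cover scaling, filter, pseudocount, samples in the fit, replicate block, trend, averaged shEZH2 samples, the study's thresholds (log2 of 1, unadjusted p under 0.05) and each replicate left out. Promoters came from RefSeq and gene positions from GENCODE v44, both on GRCh38. Plots were made in Python 3.11.15 (matplotlib 3.10.9).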

Additional observations from a re-analysis of the deposited data

How the results depend on the processing

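Of 320 log2 fold changes under the alternatives, 291 were kept, 19 newly passed, 6 no longer passed and 4 turned direction. Kept means the same direction and the same side of the threshold. SDC1 against Ctrl has no threshold here and was kept where it moved by less than its residual SD. The tally also holds GPC2, which is given without a test against Ctrl, and 3 of the 6 are GPC2 with shEZH2. With DZNep against Ctrl, SDC2 and GPC1 kept an adjusted p under 0.05 in 16 alternatives and GPC3 in the 15 that tested it, while SDC2, at log2 0.82, does not reach the study's threshold of 1. The difference of SDC4 between shEZH2 and Ctrl turned to 0.00604 with the values as deposited and was -0.20 to 0.12 with single replicates left out, and that of SDC3 between the treatments was -0.28 to 0.07 (0.067 without DZNep replicate 1). The cause of these changes was not tested.

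In the counts of members, SDC1 is included only between the treatments. A mean of at least 20 left 1 lower with DZNep, since GPC3 was no longer tested. The members higher with DZNep numbered 2 with the values as deposited and 2 with the replicate block, 0 at the study's thresholds, and 1 to 2 with single replicates left out. Members lower with shEZH2 numbered 0 with the shEZH2 samples averaged and 0 to 1 with replicates left out. Between the treatments, higher and lower members numbered 2 and 1 with the values as deposited, 2 and 1 with only the groups compared, and 1 to 2 and 0 to 1 with replicates left out.

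In the pathway list, DZNep gave 7 lower at a mean of at least 20, 10 higher with shEZH2 averaged, 8 higher at the study's thresholds and 7 to 17 higher with replicates left out (fewest without DZNep replicate 1). With shEZH2, 1 was higher without a filter, 1 at a mean of at least 20, 7 with the values as deposited, 2 at the study's thresholds and 0 to 7 with replicates left out (0 to 5 lower), and 0 higher and 0 lower when averaged. Between the treatments, 3 were higher at a mean of at least 20, 3 without a filter, 3 (and 1 lower) at the study's thresholds, 0 (and 0 lower) when averaged and 0 to 6 with replicates left out. There, 5 were lower with only the groups compared, 6 with the values as deposited and 0 to 5 with replicates left out.

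The labels give only a replicate number, and what samples with the same number share is not stated. Deviations correlated at 0.79 between Ctrl and DZNep, -0.02 between Ctrl and shEZH2 and -0.04 between DZNep and shEZH2. Ctrl and DZNep samples of the same number thus deviated alike, which the main fit leaves out. The replicate block takes a single shift for all groups, although shEZH2 did not share it. With the block, SDC4 passed for DZNep against Ctrl (limma, adjusted p = 0.00934). With the replicate block, members between the treatments (SDC1 included) numbered 3 higher and 2 lower, and pathway genes 9 lower. Under it, shEZH2 against Ctrl gave 8 higher and 9 lower in the pathway list. Without TMM scaling, the share of calls that were higher went from 52.3% to 62.2% with DZNep, from 46.3% to 66% with shEZH2 and from 52.5% to 43.5% between the treatments. Precision is limited by 2 samples per group and by rounding, which is coarse below a value of 10.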
